A study of Mus musculus with 12 samples.

Results

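Dickkopf, Kremen, Naked cuticle, Notum and Wif1 genes encode inhibitors of Wnt signalling, and the methylation of their promoters was followed in the mouse colon after induction of the DNA methyltransferase Dnmt3b. The 10 genes were taken by symbol (Dkk1, Dkk2, Dkk3, Dkk4, Kremen1, Kremen2, Nkd1, Nkd2, Notum and Wif1) from 12098 genes listed in the series. Of these, 9 were listed in at least 1 library, each with 1 RefSeq promoter row out of 13614, and Dkk4 was in none of the tables. The assay was reduced representation bisulfite sequencing: the enzyme MspI cuts DNA at CCGG, fragments of a chosen size are kept, and bisulfite turns unmethylated cytosine into a base read as thymine. Colon epithelial cells of 6 C57BL/6 mice on a chow diet supplied the DNA. The 3 induced mice had doxycycline at 0.5 g/l in the drinking water for 3 months, with the water changed every 3 days, and the 3 control mice drank regular water. Every mouse gave a library of short fragments (40 to 120 nt) and a library of long fragments (120 to 220 nt), 12 libraries in all. The labels give neither the promoter that drives Dnmt3b nor whether control mice carried the transgene, and doxycycline was given to the induced mice alone, so the drug and the induction cannot be told apart.

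Wnt ligands bind Frizzled receptors and the co-receptors Lrp5 and Lrp6, and beta-catenin then enters the nucleus and drives transcription. In the intestine this pathway maintains the stem cells at the crypt base. The Dickkopf proteins Dkk1, Dkk2 and Dkk4 bind Lrp5 and Lrp6, and the Kremen proteins are transmembrane receptors that act together with Dickkopf. Wif1 is secreted and binds Wnt itself, Notum removes the lipid that Wnt needs for activity, and Nkd1 and Nkd2 bind Dishevelled inside the cell. Promoter methylation is known at several of these genes in human colorectal tumours.

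Each value is the mean CpG methylation of a gene's promoter in 1 library, given here in percent. For all 9 listed genes the gene value and the promoter value were the same number, since each had 1 promoter row. The files hold no read depth, so a value of 0% can stem from a handful of reads. Short-fragment libraries listed 10358 to 10838 genes and long-fragment libraries 7278 to 8108. All 6 short-fragment libraries listed Dkk1, Kremen1, Kremen2, Nkd1, Nkd2, Notum and Wif1, and all 6 long-fragment libraries listed these except Dkk1, together with Dkk2 and Dkk3. Thus 7 genes were tested among 10027 in the short fraction, 8 among 6127 in the long fraction, and 6 were present in all 12 libraries.

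Promoter sequence was available for 6 of the 10 genes in RefSeq windows of build GRCm38.p6, which run from 250 bases before a transcript start to 50 bases after it. Which promoter window and build the authors used is not given in the sources used here, and these sequences show the region and not the exact CpGs behind a value. Transcript starts in the windows of Dkk1, Nkd2 and Wif1 lay at the outermost start of the gene. Those of Dkk2, Kremen2 and Nkd1 lay 26, 131 and 6291 bases inside it and are not printed. The 250 bases before the start are given 5′ to 3′ on the gene's strand with CpG in capitals, for the 3 genes whose window is set on the outermost start, of which Wif1 holds MspI sites spaced within both size ranges. The Dkk1 stretch is chr19:30549497-30549746 (minus strand), that of Nkd2 chr13:73847632-73847881 (minus strand) and that of Wif1 chr10:121033754-121034003 (plus strand).
Dkk1: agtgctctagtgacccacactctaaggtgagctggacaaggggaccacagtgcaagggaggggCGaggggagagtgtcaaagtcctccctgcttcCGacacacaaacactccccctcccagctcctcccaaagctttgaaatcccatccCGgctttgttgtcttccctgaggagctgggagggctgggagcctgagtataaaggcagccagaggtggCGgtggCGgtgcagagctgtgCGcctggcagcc
Nkd2: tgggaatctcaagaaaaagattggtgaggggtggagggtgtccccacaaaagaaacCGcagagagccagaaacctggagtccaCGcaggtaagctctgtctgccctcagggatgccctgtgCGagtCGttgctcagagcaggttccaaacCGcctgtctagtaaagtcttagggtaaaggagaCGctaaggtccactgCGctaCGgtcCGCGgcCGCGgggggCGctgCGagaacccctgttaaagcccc
Wif1: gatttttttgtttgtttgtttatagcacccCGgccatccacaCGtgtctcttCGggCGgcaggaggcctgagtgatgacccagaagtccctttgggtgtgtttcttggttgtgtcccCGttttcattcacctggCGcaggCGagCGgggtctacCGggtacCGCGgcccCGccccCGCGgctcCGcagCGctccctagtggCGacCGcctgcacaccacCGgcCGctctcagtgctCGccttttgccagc
The printed stretch of Dkk1 held 6 CpGs, that of Nkd2 14 and that of Wif1 21. Over the whole 300-base window Dkk1 had 9 CpGs, Dkk2 11, Kremen2 17, Nkd1 6, Nkd2 26 and Wif1 25, against a median of 21 over 12147 windows of genes listed in the series. The MspI site CCGG, which reads the same on both strands and contains 1 CpG, occurred in 83.2% of those windows. It was found 3 times in the Wif1 window, 2 times each in those of Kremen2 and Nkd2, 1 time in that of Dkk1 and not in those of Dkk2 and Nkd1.

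None of the 3 listed Dickkopf genes passed the test, although their induced mice were at 24.5% to 96.6% where the compared control mice were under 5%, with a wide spread between induced mice. Dkk1, the best known secreted Lrp6 antagonist, was measured in short fragments only. Its level was 0%, 1.64% and 1.10% in control mice 1, 2 and 3 and 24.5%, 65.2% and 71.1% in induced mice 1, 2 and 3. The groups did not overlap, and induced mouse 1 stood well below the other two. The difference was 52.7 percentage points (SE 13.8, 95% interval 15.9 to 89.5), with limma adjusted p = 0.0545, so it did not pass the threshold of 0.05. Without induced mouse 1 the difference was 67.3 points and passed (limma adjusted p = 0.000440). With any other library left out it did not pass (limma adjusted p = 0.134 to 0.166).

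Dkk2 and Dkk3 were compared in long fragments. Dkk2, which can inhibit or activate Wnt signalling depending on its partners, was at 0%, 4.62% and 3.46% in control mice 1, 2 and 3 and at 30.7%, 51.4% and 83.4% in induced mice 1, 2 and 3. Dkk3, a divergent family member, was at 3.03%, 0% and 2.27% in the controls and at 64.2%, 39.6% and 96.6% in the induced mice. The groups did not overlap in either gene, and induced mouse 3 was the highest in both. Differences were 52.4 points for Dkk2 (SE 14.6, limma adjusted p = 0.0757) and 65.0 points for Dkk3 (SE 15.7, limma adjusted p = 0.0502), neither past the threshold. The Dkk2 difference passed without induced mouse 1 (64.7 points, limma adjusted p = 0.0337) or 3 (38.3 points, adjusted p = 0.0465). The Dkk3 difference passed without induced mouse 2 (78.7 points, limma adjusted p = 0.0249) or 3 (50.1 points, adjusted p = 0.0357). With any other library left out they did not pass (limma adjusted p = 0.170 to 0.218 for Dkk2 and 0.123 to 0.161 for Dkk3). In short fragments Dkk3 was listed in control mice 1 and 2 alone, at 10.4% and 20.0%, so no comparison was made there.

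Kremen1 had low methylation in every library and Kremen2 was already methylated in the control mice. In short fragments Kremen1 was at 4.19%, 6.42% and 4.17% in control mice 1, 2 and 3 and at 4.17%, 6.27% and 5.37% in induced mice 1, 2 and 3. The groups overlapped, and the difference of 0.34 points had a 95% interval of -2.08 to 2.76 (limma adjusted p = 0.839). In long fragments it was at 0% in all libraries except induced mouse 2, at 1.42%, and the interval of the difference was -0.73 to 1.68 points (limma adjusted p = 0.584). The sign of these small differences changed with the scaling of the libraries.

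Kremen2 rose from intermediate to high methylation in both fractions. In short fragments it was at 45.7%, 61.3% and 44.4% in control mice 1, 2 and 3 and at 80.4%, 85.8% and 89.2% in induced mice 1, 2 and 3. In long fragments the controls were lower, at 22.4%, 32.9% and 26.5%, and the induced mice were at 84.0%, 92.8% and 89.9%. Groups did not overlap in either fraction. The rise was 34.6 points in short fragments (SE 5.64, limma adjusted p = 0.0112) and 61.6 points in long fragments (SE 3.82, limma adjusted p = 0.00123). Without control mouse 1 the short-fragment rise was 32.3 points and did not pass (limma adjusted p = 0.0518). Its control mean was higher than that of 97.7% of the genes in short fragments and 94.3% in long fragments, whereas the other tested inhibitors had control means under 5%.

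**Figure D1:**
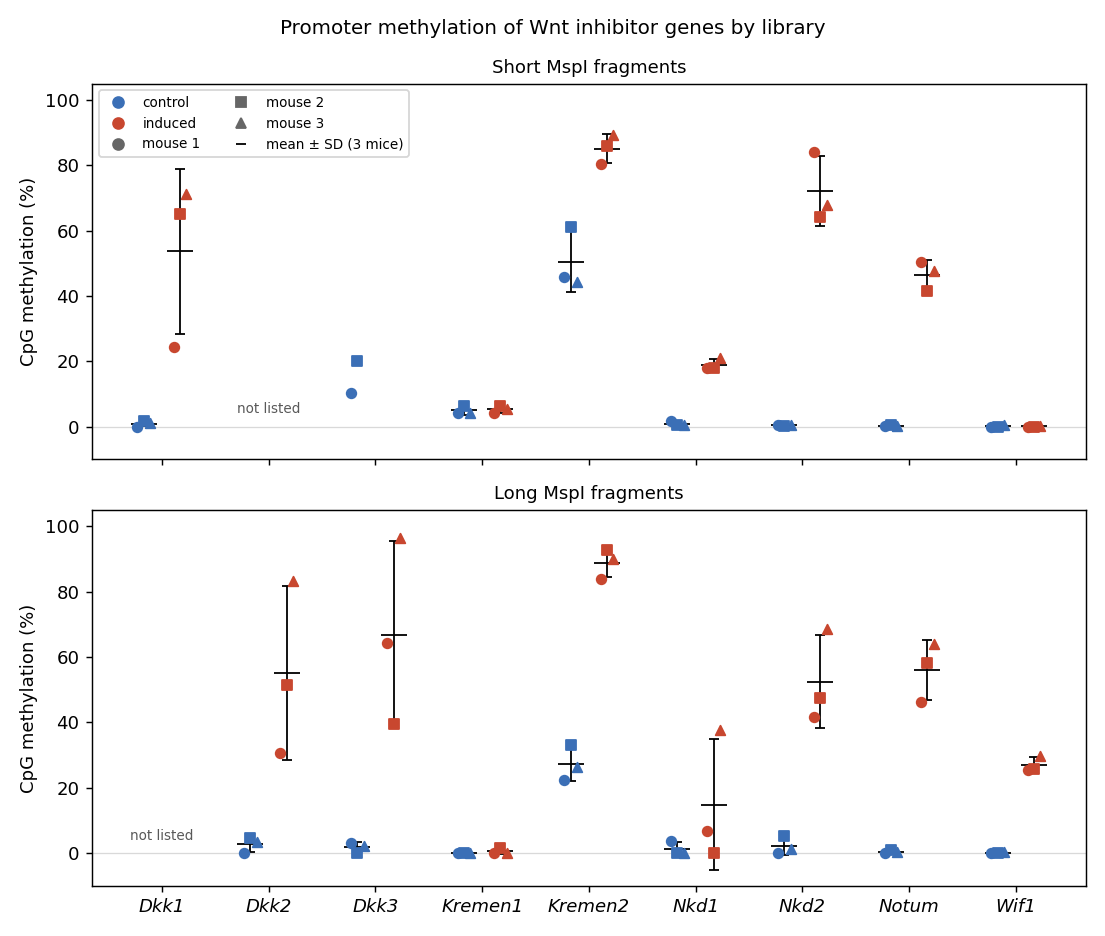
Promoter CpG methylation (percent, vertical axis) of the 9 listed genes in each library, short fragments above and long fragments below, with control mice in blue, induced mice in red, a marker shape for each mouse and black bars for the mean and SD where 3 mice were listed. Control values sit near 0% except for Kremen2 and for Dkk3 and Kremen1 in short fragments, and the induced values of Dkk1, Dkk2 and Dkk3 are widely spread.

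Notum, a secreted Wnt deacylase, rose from under 1% to about the middle of the scale in both fractions. In short fragments it was at 0.13%, 0.48% and 0.17% in control mice 1, 2 and 3 and at 50.3%, 41.5% and 47.5% in induced mice 1, 2 and 3. In long fragments it was at 0%, 0.81% and 0.46% in the controls and at 46.1%, 58.2% and 63.9% in the induced mice. The groups were far apart in both fractions. The rises were 46.2 points (SE 2.44, limma adjusted p = 0.000440) and 55.6 points (SE 4.98, limma adjusted p = 0.00283), and both held whichever library was left out.

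Wif1 was at or near 0% in short fragments of both groups and rose in long fragments. In short fragments it was at 0%, 0% and 0.56% in control mice 1, 2 and 3 and at 0%, 0% and 0.14% in induced mice 1, 2 and 3. The 95% interval of that difference was -0.64 to 0.36 points (limma adjusted p = 0.658). Values at the floor make such an interval narrow, and their read depth is unknown. In long fragments the controls were at 0%, 0% and 0.44% and the induced mice at 25.4%, 25.6% and 29.8%. The groups were far apart there, with a rise of 26.8 points (SE 1.36, limma adjusted p = 0.000863) that held whichever library was left out.

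The intracellular inhibitors Nkd1 and Nkd2 both rose in short fragments, to different levels. Nkd2 was at 0.35%, 0.25% and 0.58% in control mice 1, 2 and 3 and at 84.2%, 64.1% and 68.0% in induced mice 1, 2 and 3, a rise of 71.7 points (SE 5.81, limma adjusted p = 0.00118). Among the 10027 genes tested, 97.9% had a smaller difference. In long fragments Nkd2 was at 0.04%, 5.10% and 1.32% in the controls and at 41.6%, 47.5% and 68.5% in the induced mice, a rise of 50.3 points (SE 7.90, limma adjusted p = 0.0136). This long-fragment call was lost without control mouse 1, 2 or 3 (limma adjusted p = 0.0658, 0.0593 and 0.0650), with the difference between 49.3 and 51.8 points.

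Nkd1 reached lower levels. In short fragments it was at 1.83%, 0.42% and 0.33% in control mice 1, 2 and 3 and at 17.8%, 17.9% and 21.0% in induced mice 1, 2 and 3. These values were tight, and the rise of 18.0 points (SE 1.10) passed with limma adjusted p = 0.000599. In 1 fit over all 12 libraries, where both fractions share an estimate of the spread, this rise did not pass (limma adjusted p = 0.147). In long fragments Nkd1 was at 3.81%, 0% and 0% in the controls and at 6.88%, 0% and 37.7% in the induced mice. The groups overlapped and induced mouse 3 stood apart, and the difference of 13.6 points did not pass (SE 11.1, limma adjusted p = 0.552), falling to 2.17 points without that mouse.

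Counted over genes, 4 of 7 tested inhibitors rose in short fragments (Kremen2, Nkd1, Nkd2 and Notum) and none fell, where 27.6% of all 10027 genes tested rose and 0.0798% fell. In long fragments 4 of 8 rose (Kremen2, Nkd2, Notum and Wif1) and none fell, where 23.2% of all 6127 genes tested rose and 0.0163% fell. Groups did not overlap for 5 of 7 and for 6 of 8 genes, with the induced mice higher each time, where this held for 39.5% of all genes in short and 38.2% in long fragments. By promoter row the same counts of 4 of 7 and 4 of 8 were found, against 27.4% of 11317 and 22.8% of 6977 rows higher and 0.0795% and 0.0143% lower. The median difference over the tested inhibitors was 34.6 points in short and 51.4 points in long fragments, and over all genes it was 0.50 and 0.94 points. These counts describe genes picked by name with earlier results known, and no test of the group was made. Rescaling the libraries to a common median deviation lowered the median difference of all genes by 0.40 and 0.50 points and changed the split of called genes from 2765 higher and 8 lower to 2844 and 2368 in the short fraction, and from 1421 higher and 1 lower to 1628 and 1938 in the long fraction. With that scaling 5 and 6 inhibitors rose and none fell.

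**Figure D2:**
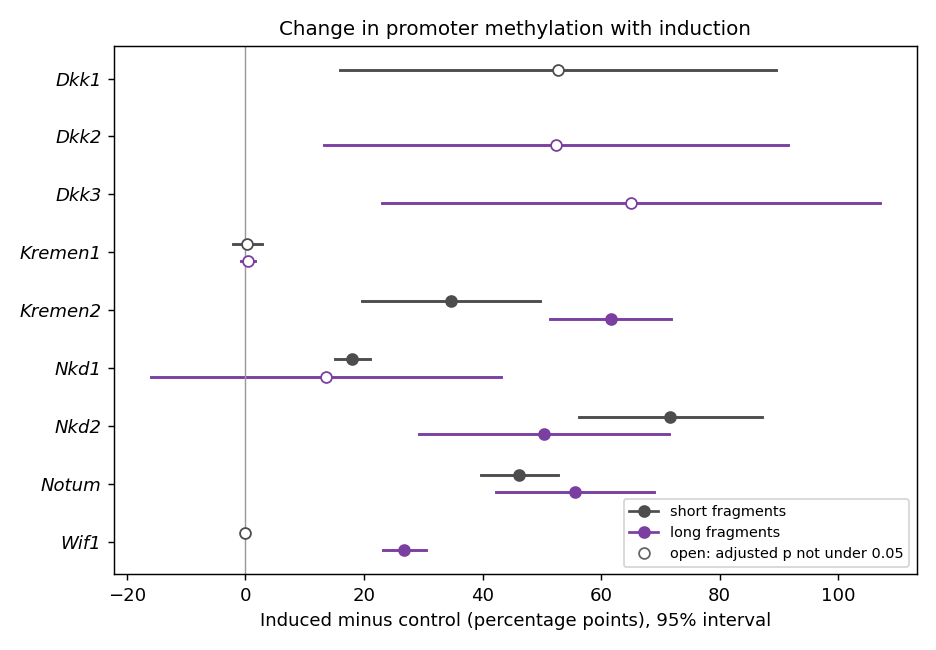
Difference in methylation between induced and control mice (percentage points, horizontal axis) for each gene with its 95% interval from limma, short fragments in grey and long fragments in purple; filled points passed the threshold. The intervals of Dkk1, Dkk2 and Dkk3 lie above 0 although none of them passed after adjustment, and both intervals of Kremen1 span 0.

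The inhibitors ranged from no detectable change to large rises. In short fragments Kremen1 and Wif1 sat in the large group of genes near 0, while Nkd2 was among the larger rises. In long fragments 5 of 8 had a mean rise of more than 50 points, where 14.2% of all genes did, and in short fragments 2 of 7, where 13.5% did. The order of the induced means in short fragments was Kremen2 (85.1% ± 4.43), Nkd2 (72.1% ± 10.7), Dkk1 (53.6% ± 25.4), Notum (46.4% ± 4.47), Nkd1 (18.9% ± 1.83), Kremen1 (5.27% ± 1.05) and Wif1 (0.05% ± 0.08; SD, n = 3 each). Neighbours from Kremen2 to Nkd2, from Nkd2 to Dkk1 and from Dkk1 to Notum overlapped in their single-mouse values. In long fragments the order was Kremen2 (88.9% ± 4.48), Dkk3 (66.8% ± 28.6), Notum (56.1% ± 9.07), Dkk2 (55.1% ± 26.6), Nkd2 (52.5% ± 14.2), Wif1 (27.0% ± 2.47), Nkd1 (14.8% ± 20.1) and Kremen1 (0.47% ± 0.82; SD, n = 3 each). There each gene overlapped its neighbours except Nkd2 and Wif1, whose single-mouse values were apart. Induced mouse 3 had the highest level of the induced mice in 6 of the 7 genes without ties in long fragments and in 3 of 6 in short fragments.

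**Figure D3:**
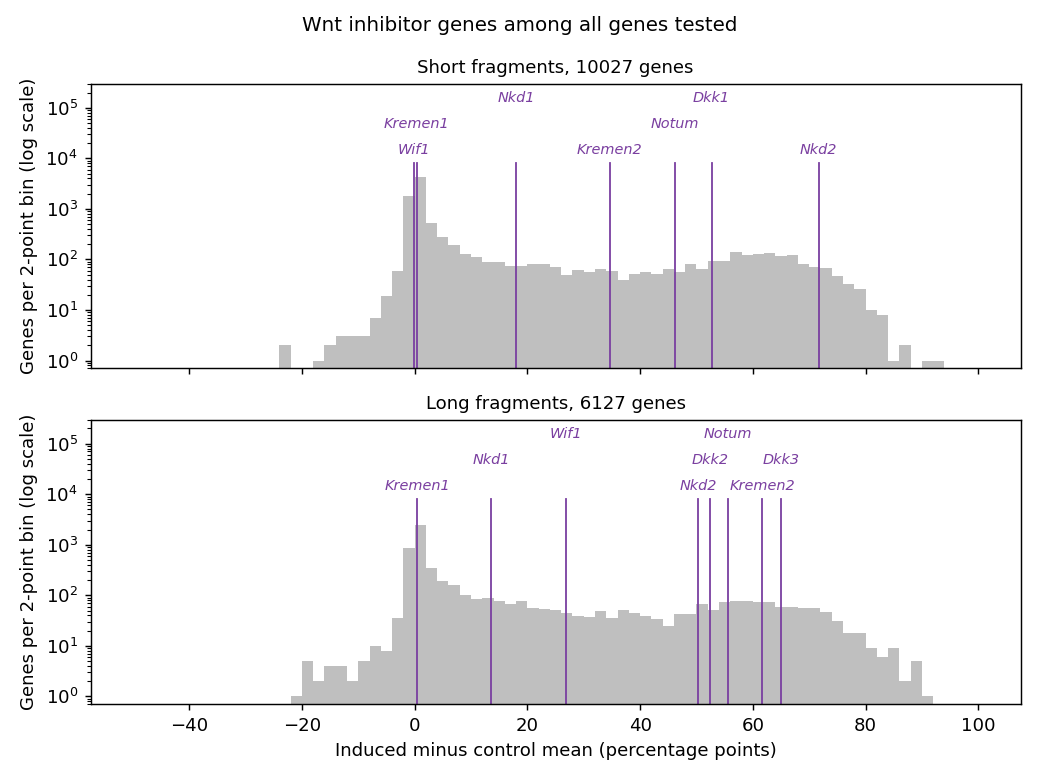
Number of genes per bin of the difference between induced and control means (horizontal axis, percentage points; vertical axis on a log scale), short fragments above and long fragments below, with purple lines at the inhibitor genes. Kremen1 lies in the peak near 0 in both fractions, Wif1 in that peak in short fragments alone, and 5 genes lie beyond 50 points in long fragments.

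Because short and long fragments came from the same mice, the change with induction was compared between them for the 6 genes listed in all 12 libraries. In 1 limma fit over 5309 genes with mouse as a random block, Wif1 rose more in long than in short fragments, by 26.95 points (SE 1.35, 95% interval 23.9 to 30.0, limma adjusted p = 1.55e-05). It was the 1 of 6 inhibitors called, where 4.71% of all genes differed in either direction with 2.64% rising more in long and 2.07% more in short fragments. In induced mice 1, 2 and 3 Wif1 was 25.4, 25.6 and 29.7 points higher in the long-fragment than in the short-fragment library, and in the control mice the libraries differed by 0.12 points or less. Computed from these differences within each mouse, the 26.95 points passed with a larger limma adjusted p of 0.00694. The fit over all 4 groups uses a shared estimate of spread. The SD of Wif1 was 2.47 points in long fragments of induced mice and 0.08 to 0.32 points in the other groups. Groups at or near 0% lower the shared estimate and make the interval of 23.9 to 30.0 narrow. In the RefSeq window the 3 MspI sites of Wif1 cut 220, 96 and 31 bases before the start. The cuts lie 124 and 65 bases apart, spacings within the long and the short size range, and the stretches between them, sites included, hold 9 and 11 CpGs. In the Kremen2 window the sites cut 67 bases apart, within the short range, and in the Nkd2 window 16 bases apart, within neither. The Nkd1 window held no site. Kremen2, Nkd2 and Nkd1 nevertheless had values in both fractions. Whether the fragments in the Wif1 window gave the Wif1 values was not tested.

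Kremen2 was lower in long than in short fragments in the control mice and slightly higher in the induced mice. Its long-fragment level minus its short-fragment level was -23.4, -28.3 and -17.9 points in control mice 1, 2 and 3, and 3.62, 7.05 and 0.71 points in induced mice 1, 2 and 3. The rise was larger in long fragments by 27.0 points (SE 6.56), which did not pass (limma adjusted p = 0.0576). Computed from the difference within each mouse, the same 27.0 points passed (limma adjusted p = 0.0346). For Nkd2 the rise was smaller in long fragments by 21.3 points (95% interval of long minus short -43.7 to 1.06, limma adjusted p = 0.377), with induced mouse 1 at 84.2% and 41.6%, induced mouse 2 at 64.1% and 47.5% and induced mouse 3 at 68.0% and 68.5% in short and long fragments. Notum differed by 9.48 points (interval -3.13 to 22.1, adjusted p = 0.532), Nkd1 by -4.46 points (interval -29.2 to 20.3, adjusted p = 0.881) and Kremen1 by 0.13 points (interval -2.14 to 2.40, adjusted p = 0.964). Without induced mouse 1 Notum passed at 16.4 points (limma adjusted p = 0.0146), and without induced mouse 3 Nkd1 passed at -14.8 points (limma adjusted p = 0.0273). With any other mouse left out they did not pass (limma adjusted p = 0.608 to 0.827 for Notum and 0.931 to 0.981 for Nkd1).

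**Figure D4:**
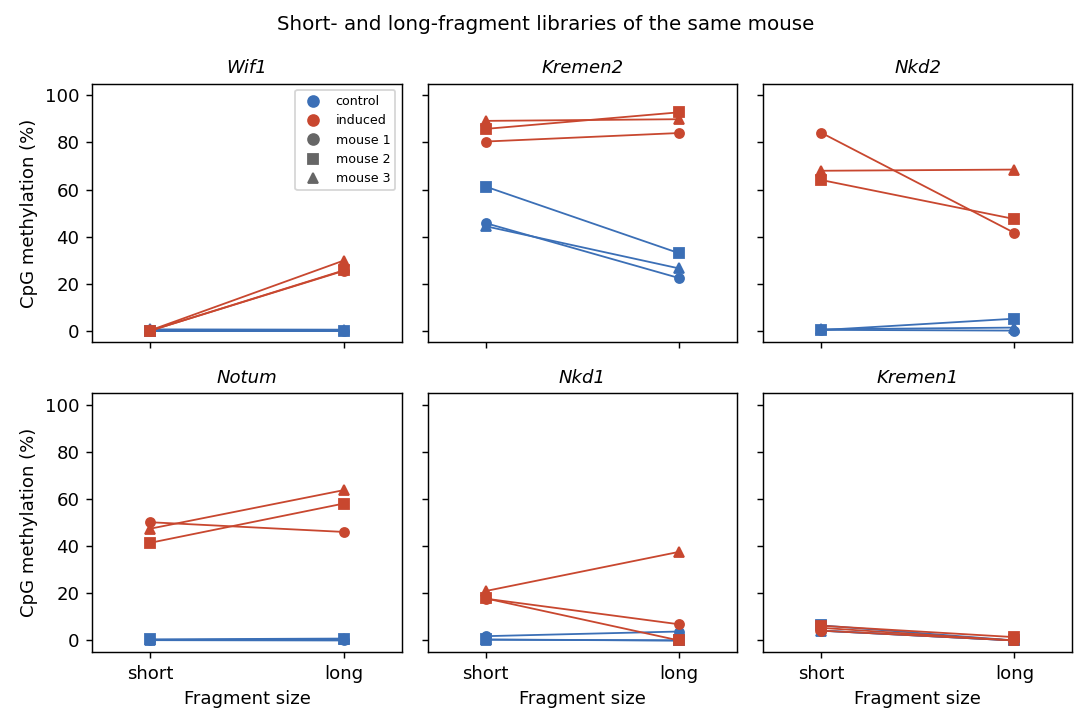
Methylation (percent, vertical axis) in the short- and long-fragment library of each mouse for the 6 genes listed in all libraries, with a line joining the libraries of a mouse, control mice in blue and induced mice in red. Wif1 rises from 0% or near it to 25.4% to 29.8% along the induced lines, and Kremen2 falls along the control lines.

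Other genes of the Wnt pathway were read from 6 lists that exclude the inhibitors above. Their counts stand beside rises in 27.6% of all genes in short and 23.2% in long fragments, and their medians beside 0.50 and 0.94 points over all genes. Of 16 tested Wnt ligand genes 14 rose in short fragments, with a median difference of 55.4 points, and of 11 in long fragments 9 rose, with a median of 49.0 points. Wnt7a went from 1.52% ± 0.707 to 81.3% ± 3.98 in short fragments (SD, n = 3, limma adjusted p = 0.000128). Wnt3 went from 0.977% ± 0.0833 to 84.0% ± 3.63 in long fragments (SD, n = 3, limma adjusted p = 0.000189). R-spondins, secreted enhancers of Wnt signalling, gave all the rises in their list with the Wnt secretion genes, 4 of 6 tested in short (Rspo1, Rspo2, Rspo3 and Rspo4) and 2 of 3 in long fragments (Rspo2 and Rspo4). Rspo3 went from 0.60% ± 0.105 to 61.7% ± 6.22 in short fragments (SD, n = 3; limma adjusted p = 0.000494). Among other inhibitors 11 of 22 rose and 1 fell in short fragments, with a median difference of 10.7 points, and 5 of 9 rose in long fragments, with a median of 36.9 points. Shisa3, which retains Frizzled in the cell, went from 0.373% ± 0.232 to 74.0% ± 6.40 in short and Sox7 from 2.54% ± 1.98 to 72.1% ± 8.32 in long fragments (SD, n = 3; limma adjusted p = 0.000349 and 0.00148). The gene that fell was Aes, from 3.14% ± 0.898 to 0.237% ± 0.153 (SD, n = 3; limma adjusted p = 0.0133), which was chosen after its values were seen. The Aes call was lost without control mouse 1 or induced mouse 2, with an adjusted p of up to 0.0574.

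Receptors and core signalling genes were counted against the same shares of all genes. Of 16 receptors and co-receptors 4 rose in short fragments (Fzd2, Fzd10, Ror2 and Fzd5), with a median difference of 2.20 points, and of 13 in long fragments 5 rose (Lgr6, Fzd9, Ror2, Fzd2 and Fzd10), with a median of 4.13 points. Fzd2 started from 46.6% ± 11.8 and reached 91.3% ± 3.26 in short fragments (SD, n = 3, limma adjusted p = 0.00827). In long fragments Fzd2 started from 1.17% ± 2.03 and reached 25.5% ± 8.99 (SD, n = 3, limma adjusted p = 0.0320). Of 21 core genes 4 rose in short fragments, with a median difference of 0.40 points: Tcf7l1 (listed as Tcf3), Pygo1, Lef1 and Tcf7. Of 9 in long fragments Pygo1 and Lef1 rose, with a median of 3.33 points. Tcf7l1, a transcription factor that represses Wnt targets, went from 0.583% ± 0.638 to 61.7% ± 6.49 in short fragments (SD, n = 3; limma adjusted p = 0.000538). Among Wnt targets of the crypt 5 of 12 rose in short fragments (Sp5, Lef1, Prox1, Ephb3 and Ephb2), with a median difference of 2.93 points, and 1 of 9, Lef1, in long fragments, with a median of 2.09 points. In short fragments Sp5 was at 58.99% ± 2.70 and Ephb2 at 2.22% ± 0.287 in the induced mice (SD, n = 3). In long fragments Sp5 was at 13.1% ± 7.63 in the induced mice, and its difference did not pass (limma adjusted p = 0.127). In each fraction the first 3 genes of a Wnt list and first 2 of a cell type marker list were those with the largest differences. Genes beyond these were also named after their values were seen. Leaving out each library in turn, the rises that held in all 6 cases in short fragments were 14 of 14 for ligands, 2 of 4 for receptors (Ror2 and Fzd5 lost), 4 of 4 for R-spondins, 3 of 4 for core genes (Tcf7 lost) and 5 of 5 for targets. Of the other inhibitors 10 of 12 calls held, with Apcdd1 and Aes lost. In long fragments 5 of 9 ligand rises held (Wnt1, Wnt2, Wnt3a and Wnt7b lost), none of 5 receptor rises, 1 of 2 R-spondin rises (Rspo2 lost), both core rises, 2 of 5 rises of other inhibitors (Frzb, Sfrp1 and Shisa3 lost) and that of Lef1. The short-fragment rises of Ephb2, Ephb3 and Tcf7, all under 10 points, did not pass in the fit over all 12 libraries (limma adjusted p = 0.893, 0.365 and 0.274). Differences between these lists were not tested.

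Genes whose levels were closest to an inhibitor over the 12 libraries were found by the root mean square difference. For Notum they were Mgll (2.15 points) and Adamts8 (3.60 points), with Mgll at 45.2% in short and 52.7% in long fragments of induced mice. For Wif1 they were Pitpnc1 (1.41 points) and Dnm2 (1.92 points), which were likewise at 0.54% and 0% in short and 26.1% and 26.0% in long fragments of induced mice. For Nkd2 they were Msrb3 (3.77 points) and Fibcd1 (4.96 points), for Nkd1 Slc16a12 (4.82 points) and Sobp (4.83 points), and for Kremen2 Hpn (8.49 points) and Tiam1 (10.1 points). For Kremen1 they were Cirh1a and 5830457O10Rik, which had equal distances of 0.923 points. This closeness is a description over 12 libraries in 4 groups, with no test.

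Promoters of cell type markers were read in the same fits, since the isolated cells could hold other types. Of the colon epithelium markers 6 of 15 in short and 8 of 15 in long fragments were tested and none passed the threshold. The largest difference was that of Krt18 in long fragments, from 22.8% ± 2.91 to 30.2% ± 4.10 (SD, n = 3, limma adjusted p = 0.163). Its groups did not overlap. Library means over the list were 0.05% to 1.23% in short and 2.87% to 3.58% in long fragments of control mice. In induced mice they were 0.17% to 0.55% and 3.83% to 4.97%. Of the stroma, muscle and endothelium markers 5 of 6 tested rose in short fragments (Myh11, Kdr, Tagln, Des and Vim; Des and Vim lost without some libraries, adjusted p up to 0.151 and 0.0753), where 27.6% of all genes rose, and 3 of 3 in long fragments, where 23.2% rose (Pdgfra, Des and Vim, each lost without at least 1 library), with library means of 7.44% to 8.66% and 1.10% to 2.25% in control and 50.5% to 63.3% and 35.8% to 71.95% in induced mice. None of the 14 immune markers was tested in short fragments and 1 in long fragments, Coro1a, which rose from 12.6% ± 4.99 to 73.6% ± 7.48 (SD, n = 3; limma adjusted p = 0.00215). Promoter methylation does not give the amount of a cell type, and the part of other cell types in these differences was not tested.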

How the data were processed

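Reduced representation bisulfite libraries of 12 samples, 6 mice with a short- and a long-fragment library each, were read on a Genome Analyzer II, per the labels' protocols. For each library the authors deposited 1 table with a methylation fraction, averaged over CpGs, for genes and for RefSeq promoter rows. No aligner, build, promoter window or coverage filter is named in the sources at hand. The deposited fractions come without read counts, so no interval for counting error and no coverage minimum could be set. Unconverted cytosine and hydroxymethylcytosine also read as methylation.

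Fractions were multiplied to percent. Gene values equalled the mean of the gene's promoter rows within 0.005 points. Genes or promoter rows listed in all 6 libraries of a fraction were fitted with limma 3.58.1 in R 4.3.3 (lmFit and eBayes, two-sided), with Benjamini-Hochberg adjustment over all of them at 0.05. The comparison of fractions used 1 limma fit over all 4 groups and a random effect of mouse (duplicateCorrelation, 0.0674). The pairing comes from the design, which splits each mouse into both fractions, with the library number taken as the mouse. Deviations from the group means of a mouse's short and long libraries correlated at 0.294, 0.613 and 0.290 in control and at 0.198, 0.0559 and 0.394 in induced mice 1, 2 and 3. Libraries of different mice correlated at -0.486 to 0.314 in control and -0.272 to 0.0744 in induced mice, so control 1 short and induced 2 short each correlated slightly more with another mouse's long library. No pair of libraries in a fraction shared over 1.52% of values above 0. Alternatives were another presence filter, a logit scale with an offset of 1 point, library scaling and other variance moderation. A replicate block, 1 gene per set of identical values, 1 fit over all libraries and leaving out each library were also used. In the comparison of fractions each mouse was left out with both its libraries. Named genes were the inhibitors, up to 3 genes per Wnt list and fraction and up to 2 per marker list with the largest differences, and the 2 nearest genes per inhibitor. The members and lists were chosen with earlier results of these data known. List genes were matched by symbol or RefSeq synonym (GRCm38.p6). Python 3.11.15 with pandas 2.3.3 and matplotlib 3.10.9 was used for summaries.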

Additional observations from a re-analysis of the deposited data

Results flagged for a closer look

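Wif1 stood out because its change with induction differed between the fragment sizes of the same mice: the rise in long fragments exceeded that in short fragments by 26.95 points (limma interaction, adjusted p = 1.55e-05), and all 3 induced mice showed it. Computed from the difference within each mouse, the limma adjusted p was 0.00694. The interaction uses an estimate of spread shared with groups at or near 0%, which lower that estimate.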

How the results depend on the processing

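Counts of called genes moved most when library medians were subtracted, from 2773 to 5212 genes and 3111 to 5877 promoter rows in short fragments and from 1422 to 3566 genes and 1593 to 4042 rows in long fragments. In 1 fit over all 12 libraries, 1575 of 5309 genes were called in short and 1668 in long fragments. The separate fits called 2773 of 10027 and 1422 of 6127 genes, so the counts rest on different sets of genes. The replicate number as a block, which links control and induced mice by a number only, left 652 genes and 713 rows in long fragments, and with it Kremen2 in short (adjusted p = 0.0549) and Nkd2 in long fragments (adjusted p = 0.0758) did not pass. Deviations of same-numbered control and induced libraries correlated at 0.0736, 0.00398 and -0.0499 in short and 0.00102, 0.0366 and 0.0247 in long fragments. Leaving out 1 library gave 885 to 1528 genes and 995 to 1721 rows in long fragments, with 905, 885 and 897 genes without control mouse 1, 2 or 3. Leaving out 1 mouse with both its libraries gave 125 to 441 genes differing between fractions, against 250 with all libraries. The counts were 131, 125 and 158 without control mouse 1, 2 or 3, and 441, 392 and 420 without induced mouse 1, 2 or 3. Of these genes 1 to 2 were inhibitors. The cause of these shifts was not tested. The difference per mouse called 137 genes and 2 inhibitors, Wif1 and Kremen2. Dkk1 passed on the logit scale (adjusted p = 0.00609), with medians subtracted, with trended moderation and with 1 gene per set of identical values. Dkk3 passed under the same 4 settings and Dkk2 under the first 2 of them. With the replicate block Dkk1, Dkk2 and Dkk3 did not pass (limma adjusted p = 0.128, 0.161 and 0.133). Of 246 values of single inhibitors under alternatives 212 kept direction and side of the threshold. Reversals touched differences that had not passed, those of Kremen1, Wif1, Nkd1 and Cdh1. With medians subtracted Kremen1 was at -0.0522 points in short and -0.0283 points in long fragments. It ranged from -0.16 to 1.09 points in short fragments without 1 library and from -0.62 to 0.51 points between fractions without 1 mouse. In short fragments without 1 library Wif1 ranged from -0.233 to 0.0467 points and Cdh1 from -2.17 to 0.17 points. Nkd1 ranged from -14.8 to 2.47 points between fractions without 1 mouse. The effect of read depth on these values was not tested, since the files hold none.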
